A study of Mus musculus with 6 samples.

Results

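Sperm flagellum and axoneme genes were followed in RNA from mouse testis. Members were protein-coding genes with a GRCm38 symbol beginning Dnah, Dnai, Dnal, Dnaaf, Cfap, Rsph, Drc, Tekt, Odf or Spag, with at least 10 counts in at least 2 libraries and a start outside the 35 Mb of chromosome 4 that end at 150 Mb. Of 91 protein-coding genes with these prefixes, 84 were members, 15 of them dynein heavy chains (Dnah) and 69 others, among 55536 genes in the count table. All 84 were among the 20744 genes tested. The series compared whole testes of 4 month old mice of 3 genotypes, with 2 libraries per genotype, to ask how loss of the peptidylarginine deiminases PAD2 and PAD4 alters testis RNA. WT mice were FVB/NJ. P2KO mice carried a gene trap in Padi2 that puts LacZ and Neo in place of exon 1 from the start codon. DKO mice carried the same Padi2 allele together with a small CRISPR deletion in exon 1 of Padi4, in a line from 1 founder, so that effects of the line and of the alleles cannot be told apart. Both knockouts were on FVB/NJ. Total counts were 21939393 and 26081756 in WT, 27306679 and 23072179 in P2KO, and 26068171 and 23366962 in DKO. The replicates were labelled as separate samples, and p-values measure the spread between them.

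The axoneme is the microtubule core of the sperm tail. Dynein heavy chains are the motor subunits of its outer and inner arms; intermediate and light chains, assembly factors, radial spokes, the nexin-dynein regulatory complex and tektins build, anchor or regulate them, while outer dense fibres stiffen the tail around the axoneme. In testis these genes are transcribed largely in spermatocytes and spermatids, ahead of tail assembly. In bulk tissue, fewer cells of a type and less RNA per cell cannot be told apart.

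The targeted genes were read first. Padi4 had normalized counts (counts scaled to a common library size) of 22.5 and 39.8 in WT, 9.76 and 10.6 in P2KO, and 3.83 and 4.24 in DKO. Both DKO libraries lay below both P2KO libraries, which lay below both WT libraries, and the DKO versus WT difference passed the test (log2 fold change -2.94, SE 0.51, edgeR adjusted p = 0.000278). Padi2 had normalized counts of 52.9 and 59.2 in WT, 88.7 and 58.6 in P2KO, and 56.5 and 88 in DKO. For Padi2 the libraries labelled P2KO and DKO overlapped those labelled WT, with means of 73.62 in P2KO and 72.25 in DKO against 56.1 in WT. Counts over the whole gene do not isolate the replaced exon 1, so they check the Padi2 labels weakly. In mice of both knockout lines the authors reported no Padi2 transcript by RT-PCR of salivary gland. They also reported no PAD2 band on blots of spleen. Every direction below is between libraries as labelled.

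Levels per length spanned a wide range in WT. Odf1, an outer dense fibre protein, was the most abundant member at 1250 ± 24.6 library-scaled counts (CPM) per kb of merged exon (SD, n = 2). Rsph1, a radial spoke head protein, stood at 595 ± 10.8 CPM per kb, Odf2, an outer dense fibre and centrosome protein, at 453 ± 13.9, Dnaaf1, a dynein assembly factor, at 439.6 ± 14.6 and Cfap206 at 275 ± 8.78. The neighbours Odf2 and Dnaaf1 differed by less than their spread on this scale. Ranks per kb depend on the length used. Odf2 has 9919 nt of merged exon but a longest transcript of 4291 nt, and Dnah8 has 26820 and 16685 nt. For Dnaaf1 both are 2821 nt. Among the remaining prefixes, the highest levels per kb were 206 ± 3.94 for Tekt1, a tektin, 72.3 ± 1.03 for Spag6l, a central apparatus protein, 55.9 ± 1.15 for Drc1 of the nexin-dynein regulatory complex, 37.1 ± 0.17 for the light chain Dnal4 and 33.4 ± 3.24 for the intermediate chain Dnaic1. The heavy chains sat lower, with a median of 10.5 CPM per kb and a maximum of 42.5 ± 4.17 for Dnah8. Dnah8 and Dnah17 (36.5 ± 4.62), outer arm heavy chains of the sperm type, headed them. The outer arm chains best known from motile cilia were near the floor, at 0.539 ± 0.0195 for Dnah9, 0.205 ± 0.0409 for Dnah5 and 0.0855 ± 0.0267 CPM per kb for Dnah11.

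**Figure D1:**
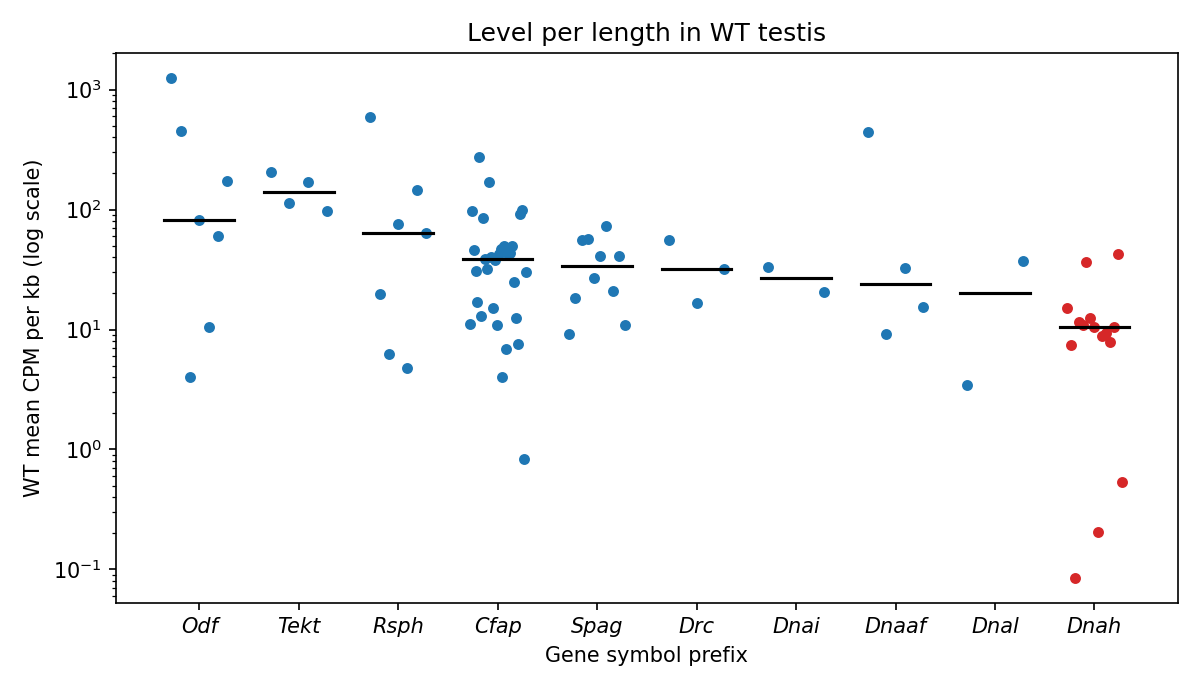
Each point is the WT mean level (n = 2) of 1 member in CPM per kb of merged exon, on a log axis, by symbol prefix; black bars are medians over the members of a prefix. The Dnah median is 10.5 and the Odf maximum is 1250 CPM per kb.

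DKO versus WT asks what loss of both enzymes does. Dynein heavy chains rose in DKO testis: 13 of 15 were called higher (adjusted p under 0.05 over all tested genes), beside 2.06% of all tested genes called higher and 1.16% called lower. Their median log2 fold change was 0.38, against 0.02 for the other members and -0.0048 for all tested genes. In the same 13 heavy chains both DKO libraries lay above both WT libraries, a pattern shown by 21.6% of tested genes. In DESeq2, 9 heavy chains were called higher, beside 1.78% of its tested genes. Without DKO replicate 2 the edgeR count fell to 6 heavy chains, beside 0.595% of genes. Long genes in general were called higher more often: 14.1% of 815 other genes off chromosome 4 with at least 12000 nt of merged exon (all exons of a gene joined), and 26.4% of 174 whose longest transcript is that long, with medians of 0.14 and 0.25. A per-library offset for merged exon length left 10 heavy chains called, beside 1.4% of all tested genes, with a median of 0.22, and an offset for the longest transcript, chosen after seeing the data, left 4, beside 1.11%, with a median of 0.17. Of the 815 other long genes, 3.31% were called higher with the first offset (median -0.0081) and 2.33% with the second (median 0.0065). The 174 genes whose longest transcript is at least 12000 nt, the class that holds every heavy chain by this measure, were not read with either offset.

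The sperm-type outer arm chains gave the most counts. Dnah8 (chr17:30624354-30877365, GRCm38), the gamma-type chain, had normalized counts of 29917 and 26037 in WT, 27624 and 30708 in P2KO, and 36495 and 39140 in DKO. Both DKO libraries were the highest, and the WT and P2KO libraries overlapped (log2 fold change 0.43, SE 0.06, edgeR adjusted p = 7.88e-06, DKO versus WT). Dnah17 (chr11:118021723-118130634), the beta-type chain, had 15752 and 13169 in WT, 14011 and 16006 in P2KO, and 18465 and 20055 in DKO. Again the DKO pair stood apart from 4 overlapping libraries (log2 fold change 0.41, SE 0.07, edgeR adjusted p = 8.97e-05). With the merged exon length offset Dnah8 was at 0.20 and Dnah17 at 0.26, both still called. With the longest transcript offset both were at 0.18, and the Dnah17 call was lost (edgeR adjusted p = 0.0556). Dnah5 had far fewer, 67.6 and 89.8 in WT, 108 and 141 in P2KO, and 126 and 147 in DKO. For Dnah5 the WT pair was lowest and the knockout libraries overlapped (log2 fold change 0.78, SE 0.19, edgeR adjusted p = 0.0109, DKO versus WT). Its call was lost without WT replicate 1 or DKO replicate 2 (edgeR adjusted p = 0.0949 and 0.207). DESeq2 called neither Dnah17 nor Dnah5 (DESeq2 adjusted p = 0.0802 and 0.0944). Dnah9 had 216 and 206 in WT, 259.9 and 211 in P2KO, and 214 and 239 in DKO, and Dnah11 had 23.7 and 37 in WT, 36.4 and 50 in P2KO, and 28.7 and 41.3 in DKO. Neither separated the genotypes, with edgeR adjusted p = 0.822 for Dnah9 and 0.877 for Dnah11.

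All 7 single-headed inner arm chains and both double-headed chains were called higher in DKO than in WT, beside 2.06% of all tested genes. Of other genes with at least 12000 nt of merged exon, 14.1% were called higher. Of those whose longest transcript is that long, 26.4% were. Dnah2, of the double-headed inner arm, had normalized counts of 4992 and 4249 in WT, 4444 and 4899 in P2KO, and 5584 and 6278 in DKO. Its partner Dnah10 had 3289 and 2616 in WT, 2795 and 3261 in P2KO, and 3586 and 4059 in DKO. In both genes the DKO pair was highest, with log2 fold changes of 0.36 (SE 0.07, edgeR adjusted p = 0.000898) and 0.37 (SE 0.08, edgeR adjusted p = 0.00341). Dnah1, a single-headed inner arm chain, had 5175 and 4416 in WT, 4817 and 5406 in P2KO, and 5883 and 6290 in DKO, with the highest WT library below the lowest DKO library (log2 fold change 0.34, SE 0.07, edgeR adjusted p = 0.00121). Dnah3, another of this class, had 4140 and 3296 in WT, 4456 and 4989 in P2KO, and 5152 and 5086 in DKO. Here the WT pair was lowest and both knockout pairs were above it (log2 fold change 0.46, SE 0.07, edgeR adjusted p = 6.24e-05, DKO versus WT; 0.31 without WT replicate 2). Dnah6 and Dnah12 had log2 fold changes of 0.38 and 0.36 (SE 0.07 for both, edgeR adjusted p = 0.000638 and 0.000735). The near-identical trio Dnah7a, Dnah7b and Dnah7c gave 0.33, 0.39 and 0.41. Dnah14, a less studied heavy chain, had 4564 and 4189 in WT, 4531 and 4856 in P2KO, and 5651 and 6224 in DKO (log2 fold change 0.44, SE 0.06, edgeR adjusted p = 1.26e-05). Without DKO replicate 2 the calls of Dnah1, Dnah2, Dnah6, Dnah7a, Dnah10 and Dnah12 were lost (edgeR adjusted p = 0.1 to 0.238; Dnah12 was then at 0.24), and Dnah10 was also lost without WT replicate 2 (log2 fold change 0.22, edgeR adjusted p = 0.103). The merged exon length offset reduced Dnah1, Dnah2, Dnah6, Dnah7b and Dnah14 to 0.22, 0.21, 0.25, 0.20 and 0.28, still called, and ended the calls of Dnah7a and Dnah10, at 0.20 and 0.22. With the longest transcript offset Dnah1, Dnah2, Dnah6, Dnah7a, Dnah7b, Dnah10 and Dnah12 were not called (edgeR adjusted p = 0.0539 to 0.37), and Dnah3, Dnah7c and Dnah14 were at 0.26, 0.21 and 0.21. DESeq2 called neither Dnah3 nor Dnah10 (DESeq2 adjusted p = 0.0574 and 0.37).

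**Figure D2:**
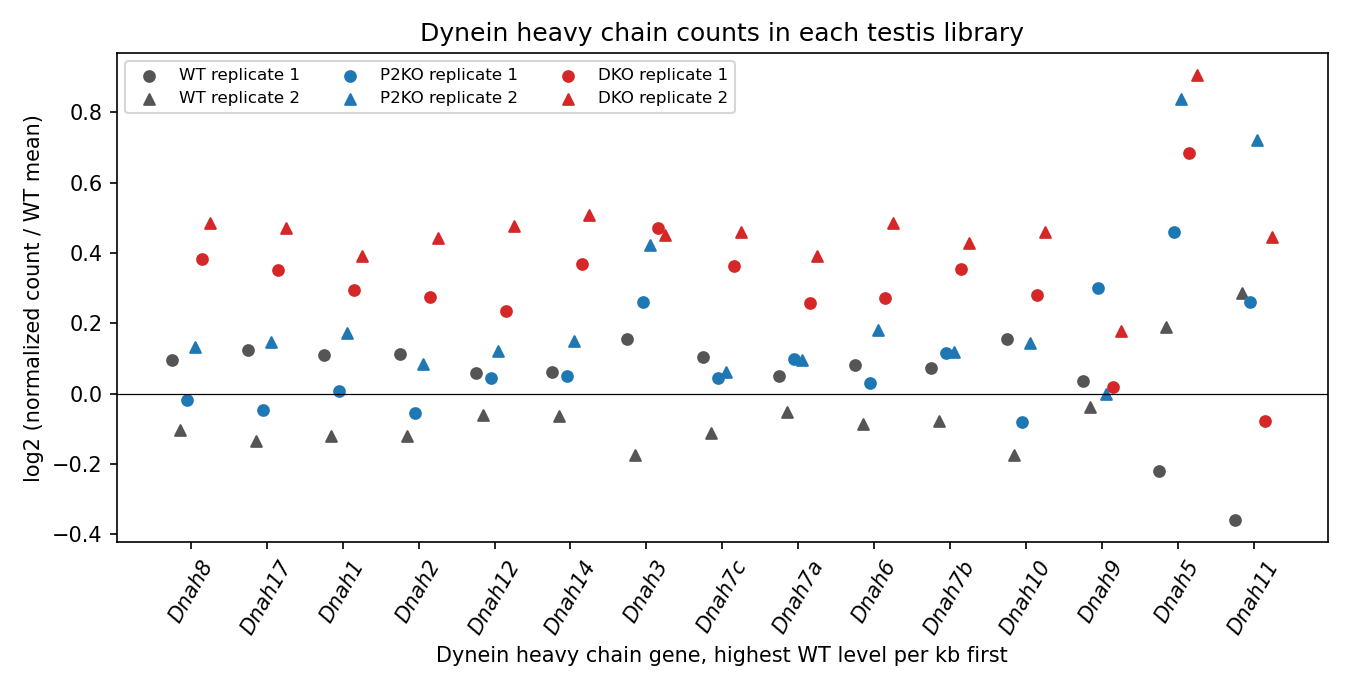
Each point is the log2 ratio of 1 library's normalized count to the WT mean of that gene, for the 15 dynein heavy chains; grey marks WT, blue P2KO and red DKO, circles replicate 1 and triangles replicate 2. Both DKO libraries lie above both WT libraries in 13 genes, Dnah9 and Dnah11 being the exceptions.

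P2KO versus WT asks about loss of PAD2. Padi4 counts were also lower in P2KO than in WT, without a call (log2 fold change -1.63, SE 0.42, edgeR adjusted p = 0.0959). The comparison shares both WT libraries with DKO versus WT. 1 of the 84 members, Dnah3, was called higher and 0 were called lower by edgeR, beside 0.198% and 0.14% of all tested genes; at an unadjusted p under 0.05, 6 members were higher and 5 lower, beside 8.57% of all tested genes in either direction, and DESeq2 called 0, beside 0.191%. Dnah3 had a log2 fold change of 0.35 (SE 0.07, edgeR adjusted p = 0.0158), with both P2KO libraries above both WT libraries. The call was lost without WT replicate 2, P2KO replicate 2 or DKO replicate 1, each leaving 0 members called, with log2 fold changes of 0.19, 0.26 and 0.34. Median log2 fold changes were 0.10 for heavy chains and -0.05 for the other members. The heavy chain median was 0.016 with the merged exon length offset and -0.023 with the longest transcript offset, chosen after seeing the data. Other genes off chromosome 4 with at least 12000 nt of merged exon had a median of 0.08. Those whose longest transcript is that long had a median of 0.13.

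DKO versus P2KO asks what loss of PAD4 adds on the Padi2 background. It shares its DKO libraries with DKO versus WT and its P2KO libraries with P2KO versus WT. 9 members were called higher, all of them heavy chains, and 0 lower, beside 0.607% and 0.598% of all tested genes. In some other settings, members that are not heavy chains were also called higher. Among these settings were edgeR on these 2 genotypes alone, leaving out either WT library, and the longest transcript offset, chosen after seeing the data. At an unadjusted p under 0.05, 24 members were higher and 4 lower, beside 6.17% and 5.68% of all tested genes, and DESeq2 called 6 members, beside 1.09%. The heavy chains called were Dnah2, Dnah6, Dnah7b, Dnah7c, Dnah8, Dnah10, Dnah12, Dnah14 and Dnah17, and the median over all 15 was 0.28. The merged exon length offset left 7 heavy chains called, without Dnah6 and Dnah7b, beside 0.781% of all tested genes, with a median of 0.22. The longest transcript offset left 6, also without Dnah12, beside 0.733%, with a median of 0.18. Before these offsets, 2.45% of other genes with at least 12000 nt of merged exon were called higher. For those whose longest transcript is that long the share was 5.75%. Dnah8 had the lowest adjusted p of the members (log2 fold change 0.37, SE 0.06, edgeR adjusted p = 0.000166). The count fell without P2KO replicate 1 or DKO replicate 2, where Dnah6, for example, was at 0.20 and 0.16. Dnah8 ran from 0.30 to 0.46 leaving out each library in turn. The WT libraries are outside this comparison and enter it only through the shared fit. Leaving out either of them raised the count, as did edgeR on these 2 genotypes alone.

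Among the 69 other members, 2 were called higher in DKO than in WT and 0 lower by edgeR, beside 2.06% and 1.16% of all tested genes. An unadjusted p under 0.05 was found for 12, beside 14.1% of all tested genes, and DESeq2 also called 2, beside 1.78% of its tested genes called higher. The called and unadjusted edgeR counts both lay near the shares of all tested genes. Cfap54, a central apparatus protein, had normalized counts of 1490 and 1383 in WT, 1607 and 1719 in P2KO, and 1831 and 1934 in DKO. Its libraries were ordered by genotype with no overlap (log2 fold change 0.39, SE 0.07, edgeR adjusted p = 0.000373), and the merged exon length offset reduced the difference to 0.24. Spag17, also of the central apparatus, had 12235 and 11206 in WT, 12394 and 13369 in P2KO, and 14086 and 13929 in DKO, with the WT pair lowest and the DKO pair highest (log2 fold change 0.26, SE 0.06, edgeR adjusted p = 0.00519). Its call was lost without WT replicate 2, DKO replicate 1 or DKO replicate 2 (edgeR adjusted p = 0.0605 to 0.0954), and with the longest transcript offset (log2 fold change 0.13, edgeR adjusted p = 0.179). By merged exon Cfap54, with 14645 nt, was the only other member in the length range of the heavy chains. Its longest transcript, of 9903 nt, is shorter than those of the heavy chains. By group, median log2 fold changes were -0.01 for 2 intermediate chains, -0.04 for 2 light chains, 0.01 for 4 assembly factors, 0.01 for 7 radial spoke genes, 0.04 for 3 Drc genes, -0.01 for 4 tektins, -0.03 for 7 Odf genes, 0.05 for 30 Cfap genes and 0.08 for 10 Spag genes. Under upper-quartile scaling the assembly factor and radial spoke medians turned to -0.01 each, and the radial spoke gene Rsph6a (log2 fold change -0.20, edgeR adjusted p = 0.0485) and Odf3b (log2 fold change -0.39, edgeR adjusted p = 0.0358) were called lower, beside 1.55% of all tested genes. Cfap45 was called lower with the merged exon length offset (log2 fold change -0.20, edgeR adjusted p = 0.0495). Without WT replicate 1 Odf3b was called lower (edgeR adjusted p = 0.0202), and without WT replicate 2 Cfap45 and Rsph6a were (edgeR adjusted p = 0.00535 and 0.0015). Odf1, the highest per kb, had normalized counts of 33422 and 34367 in WT, 32703 and 32764 in P2KO, and 34036 and 31384 in DKO, with overlapping WT and DKO libraries, both P2KO libraries below both WT libraries, and no call. The 10 largest absolute log2 fold changes among members not called ran from -0.36 for Odf3b (edgeR adjusted p = 0.0539) to 0.25 for Rsph3b.

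Heavy chains are also long, with 12009 to 26820 nt of merged exon against a median of 3012 nt and, in Cfap54, a maximum of 14645 nt for the others. Fold changes followed length outside the members too. The 5879 other genes under 2000 nt had a median DKO versus WT log2 fold change of -0.08, below that of the 815 genes of at least 12000 nt, and the longest transcripts of the heavy chains span 12009 to 16685 nt. For the 815 genes, median deviations from the mean of 6 libraries were -0.03 and -0.11 in WT, -0.03 and 0.04 in P2KO, and 0.05 and 0.09 in DKO. For the heavy chains they were -0.08 and -0.25 in WT, -0.11 and -0.03 in P2KO, and 0.15 and 0.32 in DKO. In both, WT replicate 2 was lowest and DKO replicate 2 highest. The 174 genes whose longest transcript is at least 12000 nt, with a median log2 fold change of 0.25, were not read per library. With the merged exon length offset Dnah5, Dnah7a and Dnah10 lost the call. With that offset the count was 2 without WT replicate 2 and 2 without DKO replicate 2. The mean log2 CPM of heavy chains minus that of other members was -0.42 and -0.49 in WT, -0.33 and -0.19 in P2KO, and -0.17 and -0.01 in DKO, so both DKO values were above the WT and P2KO values. After the merged exon offset it was -0.38 and -0.37 in WT, -0.30 and -0.23 in P2KO, and -0.22 and -0.11 in DKO. The part of length in the heavy chain result beyond these offsets was not tested.

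**Figure D3:**
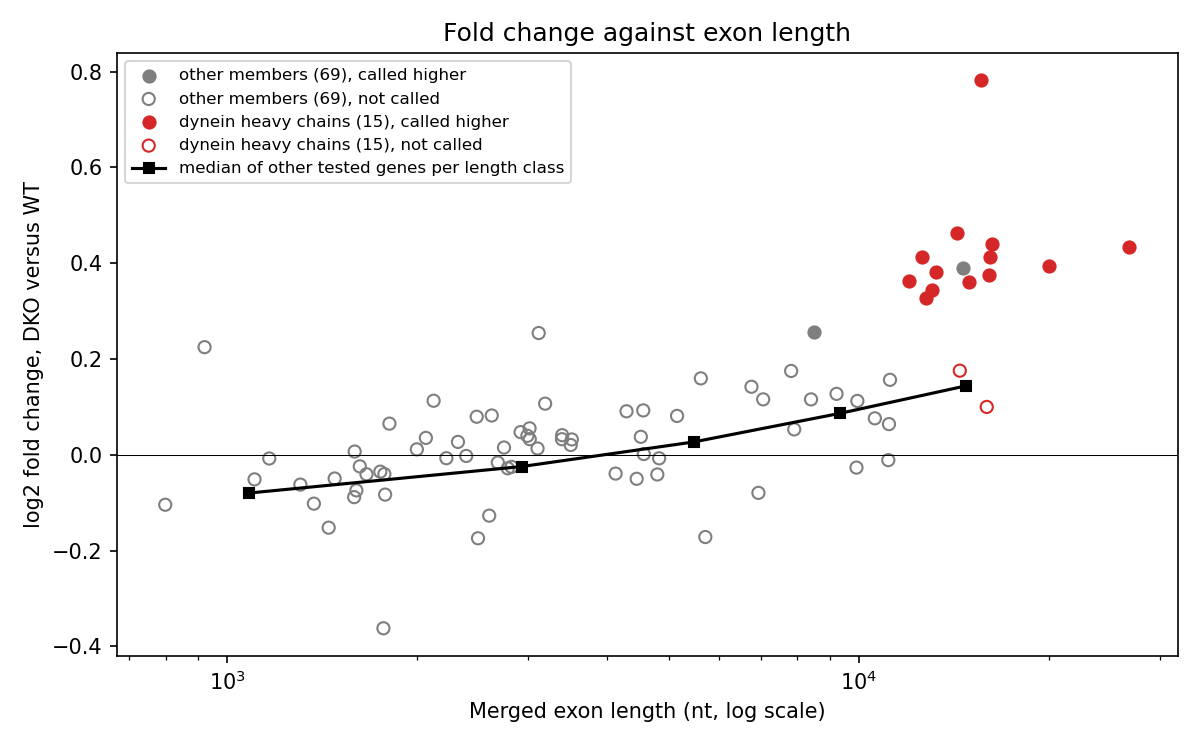
The log2 fold change (DKO versus WT) of each member is plotted against merged exon length in nt on a log axis; red marks the 15 heavy chains, grey the 69 other members, and filled points were called higher. Black squares are medians of tested genes outside the members and off chromosome 4 in 5 classes of merged exon length, running from -0.08 to 0.14. Not drawn are the 174 such genes whose longest transcript is at least 12000 nt, with a median of 0.25.

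Genes of the same structures outside the prefixes were read in fixed lists. Of 41 tested genes for arm assembly, docking and doublets, 1 was higher and 1 lower in DKO than in WT (median 0.0013), near the 2.06% and 1.16% of all tested genes. The higher one, Hydin, a very long central apparatus gene of 18037 nt, had 5413 and 4465 in WT, 5194 and 5922 in P2KO, and 6049 and 7000 in DKO (log2 fold change 0.40, SE 0.07, edgeR adjusted p = 0.000564). The lower one was Ccdc96 (log2 fold change -0.28, SE 0.06, edgeR adjusted p = 0.00519). Zmynd10, a dynein assembly factor, was higher in DKO than in P2KO (log2 fold change 0.24, SE 0.06, edgeR adjusted p = 0.0215). Of 39 fibrous sheath, annulus and tail assembly genes, 2 were higher and 1 lower (median 0.04), beside the same shares. Fsip2, a fibrous sheath gene of 21147 nt, had 9857 and 8940 in WT, 11202 and 11522 in P2KO, and 13398 and 15528 in DKO, ordered from WT through P2KO to DKO with no overlap (log2 fold change 0.62, SE 0.06, edgeR adjusted p = 6.98e-09, DKO versus WT). Fsip2 was also called higher in P2KO than in WT (log2 fold change 0.27, edgeR adjusted p = 0.033), a call lost in DESeq2, with either length offset and without WT replicate 2, P2KO replicate 1 or P2KO replicate 2 (edgeR adjusted p = 0.131 to 0.436 without these libraries). In DKO versus P2KO Fsip2 was higher (log2 fold change 0.35, edgeR adjusted p = 0.00087), but not without DKO replicate 2 (edgeR adjusted p = 0.222). Cep131, a centriolar satellite protein, was lower (log2 fold change -0.46, SE 0.08, edgeR adjusted p = 0.000492; -0.28 without WT replicate 1), and the centriolar gene Cntln was higher (log2 fold change 0.25, SE 0.07, edgeR adjusted p = 0.0396). Calls in DKO versus WT were lost without DKO replicate 2 for Hydin, Ccdc96 and Cntln (edgeR adjusted p = 0.134 to 0.433) and without WT replicate 1 for Ccdc96 and Cntln (edgeR adjusted p = 0.0883 and 0.0741; Ccdc96 was then at -0.18). The merged exon length offset reduced Hydin to 0.23 and ended the Cntln call (edgeR adjusted p = 0.146). With the longest transcript offset, chosen after seeing the data, Fsip2 was at 0.32 in DKO versus WT and at 0.20 in DKO versus P2KO. Hydin was then not called in DKO versus WT (log2 fold change 0.15, edgeR adjusted p = 0.186). Without WT replicate 2 Hydin was at 0.27. The Cntln call was also lost without WT replicate 2, P2KO replicate 1 or DKO replicate 1 (edgeR adjusted p = 0.0529 to 0.105), and DESeq2 called neither Hydin nor Cntln (DESeq2 adjusted p = 0.206 and 0.0805). In DKO versus P2KO Cep131 was lower (log2 fold change -0.39, edgeR adjusted p = 0.00961), but not without P2KO replicate 2, DKO replicate 1 or DKO replicate 2 (edgeR adjusted p = 0.109 to 0.222). The Zmynd10 call was lost without any 1 of the P2KO and DKO libraries (edgeR adjusted p = 0.0892 to 0.26).

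Of 16 tested cytoplasmic and intraflagellar dynein genes, 2 were higher and 1 lower in DKO than in WT (median -0.0003), beside 2.06% and 1.16% of all tested genes. Both higher genes were heavy chains outside the axoneme. Dync1h1, of cytoplasmic dynein, had 18373 and 14156 in WT, 16836 and 19400 in P2KO, and 20851 and 22251 in DKO (log2 fold change 0.41, SE 0.07, edgeR adjusted p = 0.000496). Dync2h1, of intraflagellar transport, had 4080 and 3609 in WT, 4145 and 4334 in P2KO, and 4852 and 5366 in DKO (log2 fold change 0.41, SE 0.07, edgeR adjusted p = 6.45e-05). In each the DKO pair was highest. Dynll2, a light chain, was lower (log2 fold change -0.30, SE 0.06, edgeR adjusted p = 0.00206). With the merged exon length offset both heavy chains had log2 fold changes of 0.26 (Dync1h1) and 0.25 (Dync2h1), and with the longest transcript offset, chosen after seeing the data, neither was called (edgeR adjusted p = 0.0986 and 0.071). Without WT replicate 2 the Dync1h1 value was 0.23. The Dync1h1 call was lost without DKO replicate 2 (edgeR adjusted p = 0.0551) and in DESeq2 (DESeq2 adjusted p = 0.303), and the Dynll2 call without DKO replicate 1 or 2 (edgeR adjusted p = 0.052 and 0.0509). In DKO versus P2KO, Dync2h1 was higher (log2 fold change 0.27, edgeR adjusted p = 0.0235) and Dynll2 lower (log2 fold change -0.26, edgeR adjusted p = 0.0185). The first call was lost with either length offset and without P2KO replicate 1, P2KO replicate 2 or DKO replicate 2 (edgeR adjusted p = 0.0754 to 0.514 without these libraries). The Dynll2 call was lost without P2KO replicate 2 (log2 fold change -0.16), DKO replicate 1 or DKO replicate 2 (edgeR adjusted p = 0.2 to 0.478). Of 11 tested regulators, which include Foxj1 and the Rfx factors, 0 were called by edgeR in DKO versus WT (median 0.08), 3 had an unadjusted p under 0.05, beside 14.1% of all tested genes, and DESeq2 called 0. The most abundant of them was Rfx2.

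Cell type markers were read beside these values, and over all tested genes 2.06% were called higher and 1.16% lower in DKO than in WT, with an unadjusted p under 0.05 in 14.1%. Of 10 elongating spermatid markers, 2 were lower in DKO than in WT, the protamine Prm1 (log2 fold change -0.22, SE 0.06, edgeR adjusted p = 0.0302) and the transition protein Tnp1 (log2 fold change -0.25, SE 0.06, edgeR adjusted p = 0.013); summed normalized counts were 506270 and 519210 in WT, 443350 and 481630 in P2KO, and 488340 and 476830 in DKO, with Prm2 the most abundant and no gene at 0, and 4 of the 10 had an unadjusted p under 0.05. In P2KO versus WT, Tnp2 was lower (log2 fold change -0.29, SE 0.05, edgeR adjusted p = 0.000762). Of 10 Leydig cell markers, 4 were higher (Cyp11a1, Cyp17a1, Star and Hsd3b6) and Hsd3b1 was lower, with an unadjusted p under 0.05 in 6 of 10; the sums were 21094 and 20860 in WT, 23285 and 21122 in P2KO, and 26562 and 22380 in DKO, led by Cyp17a1. In DKO versus P2KO Hsd3b6 was higher (log2 fold change 0.63, edgeR adjusted p = 2.93e-07). Of the spermatocyte markers Sycp2 was higher (log2 fold change 0.23, SE 0.06, edgeR adjusted p = 0.0123), and of the round spermatid markers Catsper4, which lies in the interval of chromosome 4 left out of the members, was lower (log2 fold change -0.28, SE 0.06, edgeR adjusted p = 0.00748). In DKO versus P2KO, 2 of 10 round spermatid markers were lower, beside 0.598% of all tested genes. These were Catsper4 (log2 fold change -0.44, SE 0.06, edgeR adjusted p = 2.53e-05) and Spaca1 (log2 fold change -0.25, SE 0.06, edgeR adjusted p = 0.0402). The Spaca1 call was lost with either length offset, in DESeq2 and without P2KO replicate 1, DKO replicate 1 or DKO replicate 2. Without P2KO replicate 1 its log2 fold change was -0.15. Round spermatid sums were 58099 and 58598 in WT, 59402 and 58746 in P2KO, and 58273 and 57811 in DKO. Median log2 fold changes were 0.05 for spermatogonia, -0.03 for spermatocytes, -0.02 for round spermatids, -0.03 for Sertoli cells, 0.08 for peritubular myoid cells, -0.02 for macrophages and 0.39 for endothelial cells, whose summed counts were 283 and 302 in WT, 318 and 311 in P2KO, and 369 and 398 in DKO. Of the 6 endothelial markers 0 were called and 2 had an unadjusted p under 0.05. The same chromosome 4 interval holds 1 of these 6, 3 of 8 macrophage markers and 1 of 10 Leydig cell markers. Of 10 epididymal and efferent duct markers 3 were tested, Lcn5 was at 0 in every library, and the sums were 738 and 802 in WT, 645 and 607 in P2KO, and 784 and 729 in DKO. Without DKO replicate 1 the calls of Cyp11a1, Cyp17a1, Hsd3b1 and Hsd3b6 were lost (edgeR adjusted p = 0.0725 to 0.811), without DKO replicate 2 that of Sycp2 (edgeR adjusted p = 0.296), and without either those of Prm1, Tnp1 and Catsper4 (edgeR adjusted p = 0.0636 to 0.269). The merged exon length offset ended the calls of Prm1 (log2 fold change -0.12, edgeR adjusted p = 0.325) and Tnp1 (log2 fold change -0.15, edgeR adjusted p = 0.194). The longest transcript offset, chosen after seeing the data, ended both of these and that of Sycp2 (log2 fold change 0.16, edgeR adjusted p = 0.119). Without DKO replicate 2, Cyp11a1 and Cyp17a1 had log2 fold changes of 0.45 and 0.51, and without DKO replicate 1 of 0.0737 and 0.0761, against 0.28 and 0.31 with all libraries. Prm1 was also lost without WT replicate 2 (edgeR adjusted p = 0.0992), and Tnp2 in P2KO versus WT without P2KO replicate 1 (edgeR adjusted p = 0.0784). DESeq2 did not call Cyp11a1, Cyp17a1, Star, Prm1 or Tnp1 (DESeq2 adjusted p = 0.0665 to 0.662). Multiciliated epithelium markers summed to 9339 and 8886 in WT, 9200 and 9298 in P2KO, and 9202 and 9354 in DKO, mostly from Deup1. The part of cell composition in the heavy chain result was not tested.

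Some members share sequence or exons with other genes. Dnah7a and Dnah7b transcripts match at 96.9% over 12230 nt, and Dnah7c is as close, so their separate counts are uncertain. Rsph3a and Rsph3b match at 99.3% over 1520 nt. Dnah3 overlaps Lyrm1 on the other strand, and Dnah2, Dnah8, Dnah14 and Dnah17 are among the heavy chains with exons overlapping an antisense gene. The library kit kept strand, but the strand setting of the counts is not given in the sources used here. At the count threshold, Dnah11 was the lowest member, with 21 to 47 counts, and Rsph4a, a radial spoke gene of motile cilia, fell just outside with 2 to 10. Odf3l2, Spag11a and Spag11b were at 0. The members left out on chromosome 4, Cfap57, Dnali1 and Tekt2, were not called in DKO versus WT, with log2 fold changes of 0.15, -0.06 and 0.02.

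Promoters were searched because RFX factors and CREM are known regulators of ciliary and spermatid genes. Promoter windows of 300 bases (RefSeq, GRCm38.p6) matched 71 of 84 members by symbol, giving 82 windows. The RFX X-box, searched by its consensus on either strand, occurred in 17.1% of member windows and in 2.17% of all 32851 windows. The RFX core site GTTGCC, which can lie within it, occurred in 35.4% and 12.5%, and the cyclic AMP response element TGACGTCA in 3.66% and 1.79%. Windows of tested protein-coding genes held them in 2.76%, 13.3% and 2.76%, so the response element in members was near that share. Heavy chains held an X-box in 1 of 14 windows and other members in 13 of 68. Shown are the X-box of the heavy chain Dnah17 (chr11:118129357-118129386, minus strand), that of the abundant Cfap206 (chr4:34730208-34730237, minus strand) and the response element of the heavy chain Dnah6 (chr6:73221791-73221814, minus strand), each upstream of a RefSeq start, 5′ to 3′ on the gene's strand, with the match in capitals. For Dnah17 that start lies inside the annotated span of the gene given above, so its X-box lies within the span. A match describes these letters only.
Dnah17: acgcccttGTCACCAGCGCAACcacagata
Cfap206: cgcgttccGTTTCCACGGTTACgcgactgc
Dnah6: acaactaaTGACGTCAaatactct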

How the data were processed

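Whole testis poly(A) RNA was sequenced from strand-specific libraries. The deposited values are raw gene counts, which the authors made after trimming with Trim Galore and cutadapt and alignment with STAR to GRCm38; tool versions and the strand setting are not given in the sources used here. No column was left out (0). All 55536 identifiers matched the GENCODE M21 gene table. Counts were fitted with edgeR 4.0.16 in R 4.3.3 (quasi-likelihood test, filterByExpr with a minimum of 10, TMM scaling, 6 libraries in 1 fit with genotype only, Benjamini-Hochberg adjustment over 20744 genes, call at an adjusted p under 0.05). SE is the absolute log2 fold change divided by the square root of F. DESeq2 1.42.0, other scalings and filters, GC and length offsets, a replicate block and leaving out each library were alternatives. The fit was tested on simulated data. Near-identical copies came from BLAST 2.17.0 (at least 95% identity over 150 nt and 50% of the shorter transcript). Named genes were every heavy chain, other members called in any comparison, the 5 highest WT levels per kb and the highest of each prefix, genes at the rule's limits, list genes called in any comparison with Hydin, Dync1h1 and Dync2h1, and, as a range, the 10 largest changes not called. Members and lists were chosen with earlier results of these data known; length classes were chosen after seeing the data.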

Additional observations from a re-analysis of the deposited data

How the results depend on the processing

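Leaving out each library in turn gave 0 to 2 members called in P2KO versus WT, 7 to 15 in DKO versus WT and 1 to 17 in DKO versus P2KO, with 6 to 13 heavy chains called and medians of 0.30 to 0.48 for heavy chains and -0.0046 to 0.031 for other members in DKO versus WT; a genotype left with 1 library is assumed to vary like the others. In P2KO versus WT, 0 members were called with DESeq2 on 6 libraries, DESeq2 on 2 genotypes, edgeR on 2 genotypes and the replicate block. In DKO versus P2KO, DESeq2 on 2 genotypes called 16 and edgeR on 2 genotypes 17. Counts in this section were not set beside the share of all tested genes called in the same setting. By themselves they do not set the members apart from other genes. Replicate numbers share only a number (correlations of -0.057, 0.057 and -0.05); under the replicate block 15 members were called in DKO versus WT and 6 in DKO versus P2KO. The length offset moved the heavy chain median to 0.2172 (0.2171 with the replicate block), that of other members to 0.0369 (0.0366 with the block), and the DKO minus WT difference in the ratio of heavy chains to other members from 0.37 to 0.21. Upper-quartile scaling gave -0.0079 for other members, and all tested genes split 367 higher and 322 lower, against 428 and 240. Of alternatives chosen after seeing the data, the longest transcript offset left 0, 5 and 4 calls for members in P2KO versus WT, members in DKO versus WT and heavy chains, with a heavy chain median of 0.17. The length offset without WT replicate 1, WT replicate 2, P2KO replicate 1, P2KO replicate 2 and DKO replicate 2 in turn gave 3, 0, 0, 0 and 1 members in P2KO versus WT and 15, 14, 1, 5 and 3 in DKO versus P2KO. Without WT replicate 2, DKO replicate 1 and DKO replicate 2 it gave 4, 8 and 2 members in DKO versus WT, 2, 7 and 2 of them heavy chains. Leaving out WT replicate 1, WT replicate 2, P2KO replicate 1, P2KO replicate 2, DKO replicate 1 and DKO replicate 2 in turn, it gave heavy chain medians of 0.2955, 0.1857, 0.2188, 0.2175, 0.2756 and 0.1916, and medians of other members of 0.0493, 0.018, 0.0365, 0.0359, 0.0179 and 0.0299. Signs turned in DKO versus WT for genes that were not called: Dnaaf1 0.0028 (length offset), 0.0022 (block and length offset), -0.0949 to 0.0356 leaving out libraries; Dnah11 -0.063 (longest transcript offset), -0.1012 to 0.5546 leaving out libraries; Dnah9 -0.0598 (length offset), -0.0613 (block and length offset), -0.129 (longest transcript offset); Dnaic1 0.0011 (length offset), 0.0013 (block and length offset), -0.1266 to 0.0674 leaving out libraries; Dnal4 0.0357 (length offset), 0.0342 (block and length offset), 0.0154 (GC content offset), 0.0592 (longest transcript offset), -0.0434 to 0.0308 leaving out libraries; Drc1 0.0149 (length offset), 0.0148 (block and length offset), 0.006 (longest transcript offset); Odf1 0.0243 (length offset), 0.0236 (block and length offset), 0.0219 (longest transcript offset), -0.1164 to 0.005 leaving out libraries; Tekt1 0.0375 (length offset), 0.0376 (block and length offset), 0.0378 (longest transcript offset); Tekt2 -0.0066 (upper-quartile scaling), -0.074 to 0.0944 leaving out libraries. The cause was not tested. Named calls were lost in 93 gene and setting pairs in DKO versus WT, and gained in 11 (Cfap45, Odf3b, Rsph6a and Tnp2). They were lost in 58 pairs and held in 279 in DKO versus P2KO, and lost in 21 and held in 39 in P2KO versus WT. Counts of 21 to 47 limit what can be seen for Dnah11.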
